A study of Mus musculus with 14 samples.

Results

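AP-1 is the transcription factor made when 2 basic leucine zipper (bZIP) proteins of the Fos, Jun, ATF, BATF and small Maf families pair on DNA. Its subunit genes Fos, Fosb, Fosl1, Fosl2, Jun, Junb, Jund, Atf3, Batf3 and Maff were taken by symbol, whatever their values. All 10 had a row in the bulk tables, among 35171 genes, and in the single-cell matrix, among 28692 genes. In the bulk libraries of sorted quiescent stellate cells the 10 transcripts together made up 1.94% ± 0.145 of all transcripts (SD, n = 4), led by Fos, Junb, Fosb and Jun. In the stellate-like cells of the single-cell library Junb and Jund led. That assay differs in scale, strain label and sort, so the 2 orders were not compared. In bulk libraries of stellate cells kept in control culture the 10 made up 0.0837% ± 0.00338 (SD, n = 3), and Fosl1, rather than Fos or Fosb, was the main Fos-family transcript. Strain, sort, culture and deposited table differ together between these bulk groups and cannot be told apart.

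The series asks whether the receptor P2Y14, which binds UDP-glucose released from cells, ties the death of hepatocytes to stellate cell activation. Hepatic stellate cells are pericytes that store vitamin A and lay down scar matrix when the liver is injured. Every sample came from uninjured mouse liver. Quiescent, unplated stellate cells (4 libraries) came from mice of the strain LratCre+, TdTom+ in C57BL/6J. They were freed by perfusion and digestion, enriched on a gradient, and sorted for vitamin A and for TdTom, a red fluorescent protein that Cre switches on in cells that express or once expressed Lrat. Whole liver (3 libraries) carries the same strain label, and no digestion is described for it. The cultured cells (control, 3 libraries, and UDP-glucose, 3 libraries) are labelled Balbc. They were prepared by digestion and gradient with no sort described, plated for 5 h in DMEM with 10% fetal bovine serum, then held in 0.1% serum. Treatment lasted 24 h, with 10 µM UDP-glucose or nothing added. Titles name the agent as UDP, descriptions as UDP-glucose. A single-cell library profiled the digested liver of a C57BL/6 mouse. Whether the libraries within a group stem from different animals or dishes is not stated in the labels. The p-values therefore reflect the spread between these samples alone, which may be technical.

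Fos proteins cannot bind DNA as pairs of their own and need a Jun partner, while Jun proteins also pair among themselves. Fos, Fosb, Jun, Junb and Atf3 are immediate-early genes: signals through MAP kinases switch them on within minutes, with no new protein made first, and AU-rich elements make their mRNA short-lived. Fosl1 and Fosl2 encode FRA-1 and FRA-2, which lack the strong activating domain of Fos and appear later after a stimulus. Jund is expressed in most resting cells. Batf3 is best known for its role in dendritic cells, and Maff is a small Maf protein without an activating domain of its own. In stellate cells, AP-1 has been studied mainly as a factor of activation and matrix turnover.

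The promoters of the 5 members whose mean TPM was more than 10-fold lower in culture are shown because these genes moved together, with a promoter of Maff, which was not lower. TPM is transcript abundance per length, scaled to the same total in each library. Each line holds the 250 bases before a transcription start, 5′ to 3′ on the gene's strand, from RefSeq on GRCm38.p6. A start was found for 9 of the 10 members, with 11 windows in all. Capitals mark matches, on either strand, to TGACG (the core of the cAMP response element), to TGACGTCA (the whole element, which contains TGACG), to TGACATCA (an AP-1-like site known from the Jun promoter) and to TATAAA.
Fos, chr12:85473640-85473889, plus strand: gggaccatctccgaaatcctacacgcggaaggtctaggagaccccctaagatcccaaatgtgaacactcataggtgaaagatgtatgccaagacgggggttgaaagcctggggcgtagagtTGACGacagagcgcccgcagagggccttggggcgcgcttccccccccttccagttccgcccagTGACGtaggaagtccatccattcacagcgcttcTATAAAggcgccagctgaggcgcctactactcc
Fosb, chr7:19310046-19310295, minus strand: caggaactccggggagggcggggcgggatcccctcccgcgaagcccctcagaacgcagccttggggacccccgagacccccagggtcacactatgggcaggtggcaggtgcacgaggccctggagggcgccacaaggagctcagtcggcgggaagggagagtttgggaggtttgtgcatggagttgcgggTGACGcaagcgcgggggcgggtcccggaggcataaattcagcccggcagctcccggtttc
Junb, chr8:84978749-84978998, minus strand: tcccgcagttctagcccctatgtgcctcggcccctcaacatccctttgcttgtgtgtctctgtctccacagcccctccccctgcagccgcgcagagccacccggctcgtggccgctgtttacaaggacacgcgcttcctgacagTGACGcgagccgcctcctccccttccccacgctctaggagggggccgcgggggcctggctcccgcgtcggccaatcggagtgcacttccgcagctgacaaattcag
Jun, chr4:95052223-95052472, minus strand: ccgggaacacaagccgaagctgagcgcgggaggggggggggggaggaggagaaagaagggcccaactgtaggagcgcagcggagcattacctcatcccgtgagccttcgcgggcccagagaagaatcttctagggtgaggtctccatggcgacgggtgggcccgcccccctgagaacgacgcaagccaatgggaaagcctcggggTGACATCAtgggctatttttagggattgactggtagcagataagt
Atf3, chr1:191183334-191183583, minus strand: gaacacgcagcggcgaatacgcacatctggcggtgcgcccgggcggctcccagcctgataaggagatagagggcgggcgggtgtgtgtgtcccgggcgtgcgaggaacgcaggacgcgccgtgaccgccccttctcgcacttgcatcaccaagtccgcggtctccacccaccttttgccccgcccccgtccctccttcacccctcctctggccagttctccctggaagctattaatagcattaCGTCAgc
Maff, chr15:79347270-79347519, plus strand: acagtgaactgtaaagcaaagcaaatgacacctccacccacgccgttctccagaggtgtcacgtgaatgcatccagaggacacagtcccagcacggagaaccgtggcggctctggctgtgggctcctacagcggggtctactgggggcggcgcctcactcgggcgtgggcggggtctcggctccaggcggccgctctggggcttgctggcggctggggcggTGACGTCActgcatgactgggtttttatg

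TGACG stood in the windows of Fos (129 and 66 bases before the start), Fosb (60), Junb (106) and Atf3 (7). Over all members 6 of the 11 windows with TGACG compare with 17.8% of 32851 RefSeq windows of the same length. They include the Maff window shown and another Maff window. The Fos window also held TATAAA 33 bases before the start, a match that 12.4% of all windows have. The Jun window held TGACATCA 45 bases before the start, as did a Maff window not shown, against 2.93% of all windows. The Maff window shown held TGACGTCA 29 bases before the start, against 1.55%. The AP-1 site TGANTCA is present in 6.75% of all windows, and the CArG box bound by serum response factor in 1.47%. Neither had a match in the 11 windows. Bases more than 250 before a start were not searched, so sites there would not be seen. These matches describe the letters only. Of the windows shown, 6 bases of that of Fosb and 7 of that of Atf3 lie in an annotated exon. Of those not shown, all 250 bases of the Fosl2 window, 163 of the Batf3 window and 95 of a Maff window do. Maff has 3 RefSeq starts. The windows shown for Maff and Atf3 lie inside their genes as placed below. The Jund window, chr8:70697489-70697738, is not shown and ends before the annotated gene start at 70698949. Bases next to that start were not searched.

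On GRCm38 (GENCODE), Fos lies at chr12:85473890-85477273, Fosb at chr7:19302696-19310051, Fosl1 at chr19:5447547-5455946 and Fosl2 at chr5:32135801-32157842. Jun lies at chr4:95049034-95052222, Junb at chr8:84974484-84978718 and Jund at chr8:70698949-70700616. Atf3 (chr1:191170296-191218039) and Batf3 (chr1:191097847-191108945) are neighbours, and Maff lies at chr15:79346621-79359076. All 10 are protein-coding genes. Of the exon bases of Fosl1, 57.2% overlap Ccdc85b, and of those of Jund 52.6% overlap Gm11175, both on the opposite strand. Whether counting used strand is not stated in the labels, so overlapping reads may have been shared. Jun (7.28% of exon bases, Junos) and Junb (7.52%, Prdx2) have smaller overlaps.

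All 15 listed stellate cell markers reached 1 TPM in the quiescent and in both cultured groups. Their summed level ran from 70744 to 78911 TPM in quiescent cells, 85.1 to 199.6 TPM in whole liver, 12496 to 13086 TPM in control cultures and 10413 to 11835 TPM in UDP-glucose cultures. Of 14 Kupffer cell and macrophage markers all reached 1 TPM in quiescent cells (sum 4580.5 to 5579.6 TPM, most of it Fcna at 4549 ± 432) and 3 did in control cultures (sum 409.9 to 432.7 TPM), where Clec4f was listed at 0. Of 15 sinusoidal endothelial markers all reached 1 TPM in quiescent cells (547 to 1434 TPM) and 4 did in control cultures (98.2 to 113 TPM). The 16 hepatocyte markers summed to 60.6 to 80.2 TPM in quiescent cells, 68906 to 100010.0 TPM in liver and 235 to 269 TPM in control cultures. Mitochondrial transcripts took 4.87% to 5.67% of TPM in quiescent cells, 18.5% to 22.4% in liver and 2.81% to 4.41% in the 6 cultures. The bulk depth is unknown, since TPM does not keep it.

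**Figure D1:**
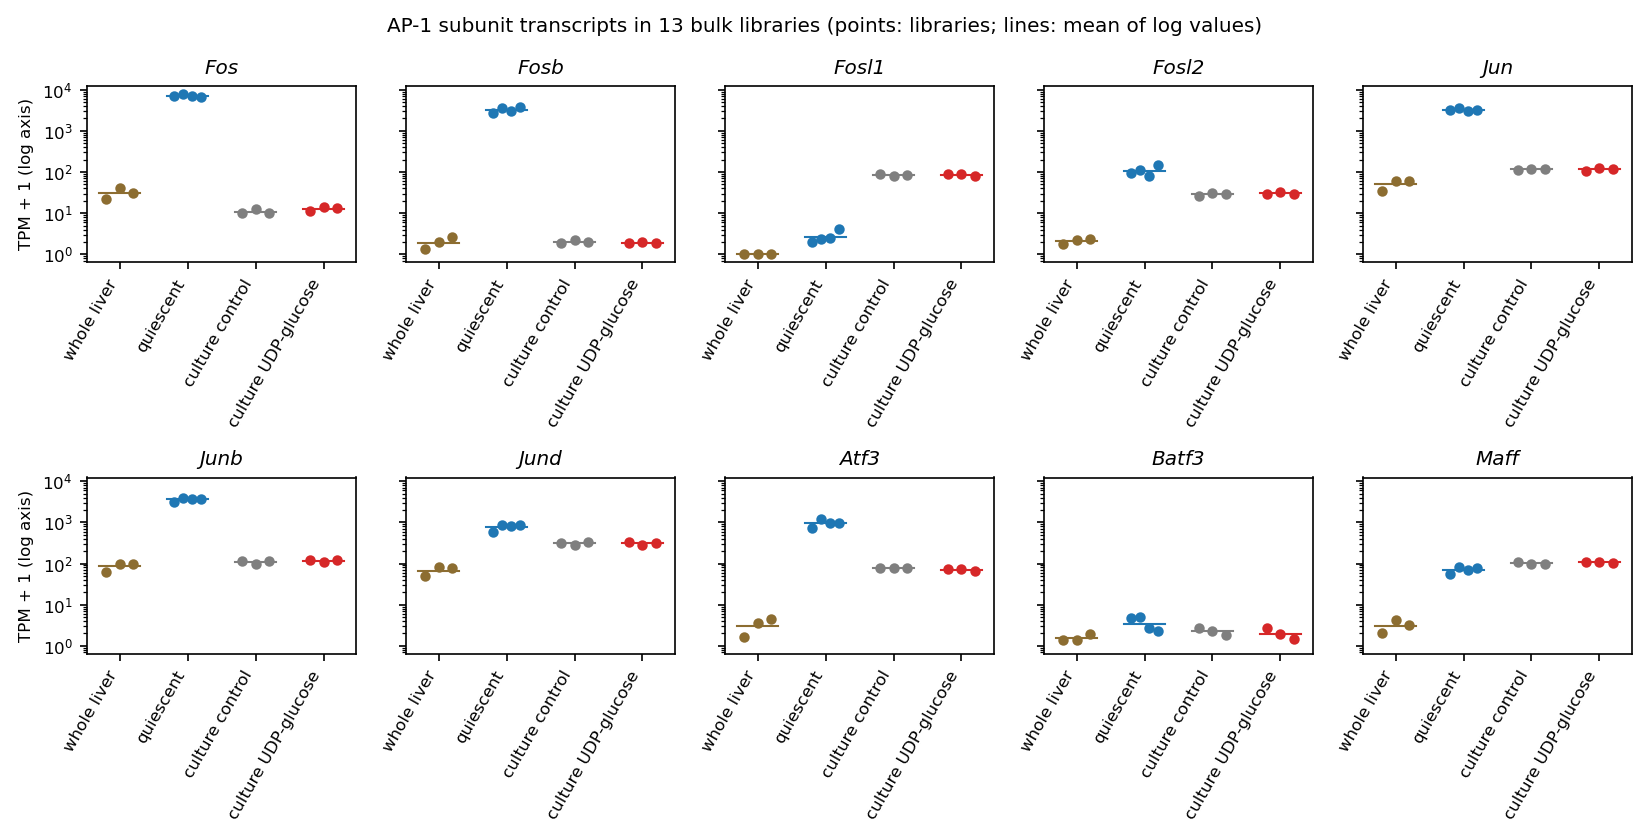
TPM + 1 of each AP-1 subunit (log y axis) in 13 bulk libraries, by group on the x axis; points are libraries and lines the mean of the log values. Fos, Fosb, Jun, Junb and Atf3 stand highest in the 4 quiescent libraries, while Fosl1 stands highest in the 6 cultures.

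Quiescent stellate cells were first set against whole liver. All 10 members were higher in quiescent cells, by limma on log2(TPM + 1) with a Benjamini-Hochberg adjusted p under 0.05 and a difference of at least 1 on that scale. The median difference of the members was 5.53, against 1.62 over all genes tested. Of 12643 tested genes, 77.9% passed these criteria in either direction and 67% were higher, so the count of 10 alone says little about the members. Fosb, Fosl1 and Batf3, whose mean in liver was under 1 TPM, also passed the filter on low values (a mean of 1 TPM over the libraries compared) only through the quiescent libraries, so their place in the count is no support for it. Every member had all 4 quiescent libraries above all 3 liver libraries, which held for 77.2% of genes in that direction and 91.1% in either.

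Fos, the founding gene of the Fos family, was the most abundant member in quiescent cells, at 7209.8, 7877, 7088 and 6744 TPM in the 4 libraries. In liver it stood at 20.9, 38.8 and 30.1 TPM. Its mean of 7229.7 TPM ranked 10th among all genes in quiescent cells. The ratio of means was 242, and the difference on the log2(TPM + 1) scale 7.91 (SE 0.18, limma adjusted p = 1.28e-11).

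Fosb, the closest relative of Fos, stood at 2755, 3631, 3011 and 3731 TPM in quiescent cells. In liver it was at 0.34, 1.0 and 1.60 TPM, near the limit of 1 TPM used for testing. Its difference of 10.74 (SE 0.21, limma adjusted p = 4.79e-12) was the largest of all 12643 genes tested.

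The 2 FRA genes were far lower. Fosl2 stood at 91.9, 112, 79.95 and 148 TPM in quiescent cells and at 0.79, 1.19 and 1.42 TPM in liver, a difference of 5.65 (SE 0.20, limma adjusted p = 3.28e-10). Fosl1 stood at 1.03, 1.37, 1.51 and 3.10 TPM in quiescent cells and was listed at 0 in all 3 liver libraries. It fell below the filter on low values when any 1 of the 4 was left out.

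Among the Jun genes, Jun, the main transactivating partner of Fos, stood at 3163, 3515, 3115 and 3269.8 TPM in quiescent cells and at 33.7, 59.8 and 58.5 TPM in liver. Junb, which often dampens Jun, stood at 3127, 3940.0, 3769.8 and 3727 TPM against 62.4, 98.6 and 97.7 TPM. Jund stood at 582, 872, 809 and 853 TPM against 47.5, 79.2 and 75.5 TPM. The differences fell in the order Jun (6.03, SE 0.19), Junb (5.41, SE 0.17) and Jund (3.53, SE 0.20), and the first liver library was the lowest of its group for all 3.

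Atf3, a stress-induced bZIP repressor and activator, stood at 746, 1179, 975 and 977 TPM in quiescent cells and at 0.65, 2.65 and 3.42 TPM in liver, a difference of 8.32 (SE 0.29, limma adjusted p = 3.23e-10). Maff stood at 54.4, 79.8, 70.5 and 77.1 TPM against 1.01, 3.30 and 2.17 TPM (4.55, SE 0.23). Batf3 was the lowest of the 10 differences, with 3.73, 3.91, 1.64 and 1.24 TPM against 0.38, 0.39 and 0.89 TPM (1.15, SE 0.29). Without quiescent library 1 or 2, the Batf3 difference was 0.997 or 0.978 and was not called.

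Scaling matters here, because a few hepatocyte genes take much of the liver TPM. Rescaling each library by the median of ratios moved the median of all genes from 1.62 to 0.04 and the share of calls that were higher from 86.0% to 50.6%. Of the members 8 stayed called. Fosl1 (0.95) and Batf3 (0.15) did not, and under quantile normalisation, where 54.7% of calls were higher, Batf3 was -0.12. Liver is a mixture, so fewer cells of a type and less RNA per cell cannot be told apart. Digestion and sort also differ between these groups and cannot be told apart from cell type.

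**Figure D2:**
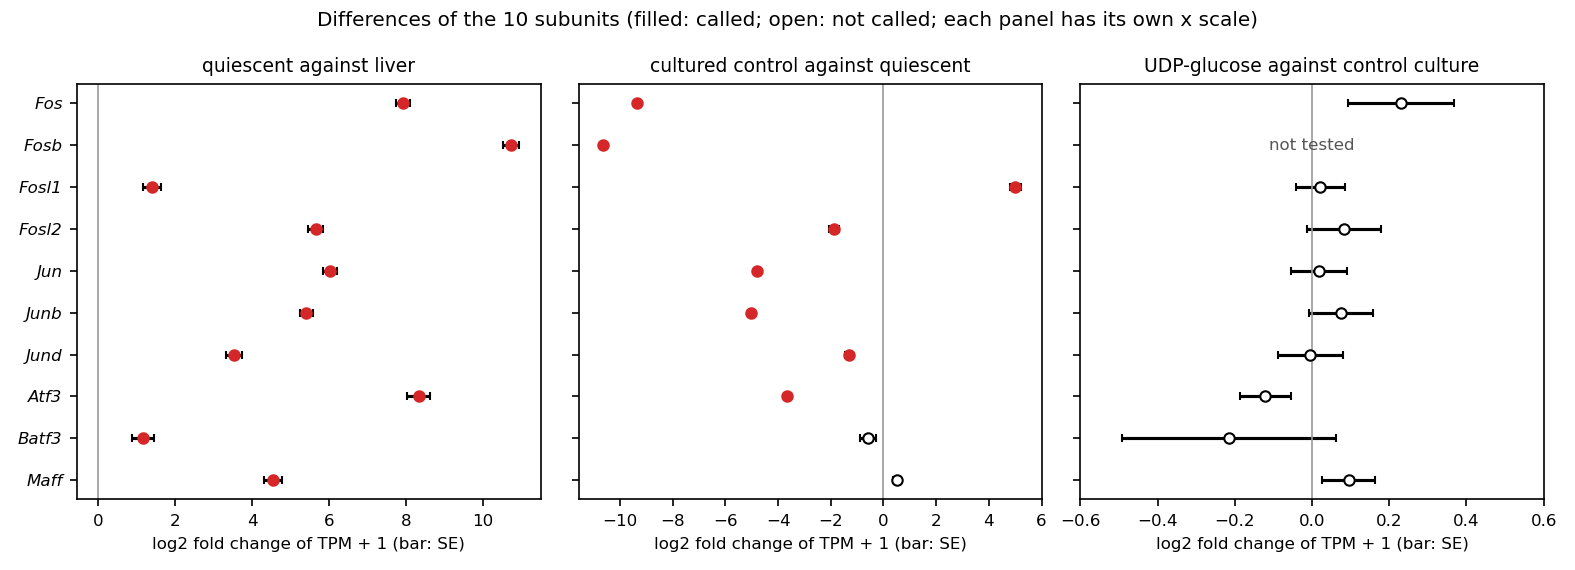
Difference of each subunit on the log2(TPM + 1) scale in 3 comparisons, with the standard error as a bar; filled points passed the test, open points did not, and each panel has its own x scale. Fosb has the largest difference in the first 2 panels, at 10.74 and -10.65, and Fosl1 is the only filled point above 0 in the second.

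Cultured control cells were then set against quiescent cells. Of the 10 members 7 were lower in culture (Fosb, Fos, Junb, Jun, Atf3, Fosl2 and Jund), Fosl1 was higher, and Maff and Batf3 were not called, by the same limma test and criteria. The percentage called among 12537 tested genes was 31.8% in either direction, 13.2% lower and 18.6% higher. The members' median difference was -2.77 against 0.26 over all genes. In 9 members the 2 groups did not overlap, 7 of them lower and 2 higher in culture. This held for 70% of genes, 23.6% lower and 46.4% higher. The same 8 calls stood under every alternative run, and each direction of the 10 did too. Rescaling by the median of ratios moved the median of all genes to 0.02 and the share of calls that were higher from 58.6% to 43.3% (48.2% with quantile normalisation).

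Fos fell from the quiescent values given above to 9.25, 11.4 and 9.25 TPM in the control cultures, a ratio of means of 725. Its difference was -9.37 (SE 0.09, limma adjusted p = 6.38e-11). Fosb, at 0.87, 1.19 and 1.03 TPM in culture, differed by -10.65 (SE 0.12, limma adjusted p = 1.05e-10). These were the 2 lowest of the 12537 differences, Fosb first. In rank among all genes, Fos moved from 10 in quiescent cells to 8657 in control cultures.

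Fosl1 went the other way. It stood at 86.7, 81.1 and 84.5 TPM in control cultures, against 1.03 to 3.10 TPM in quiescent cells, a ratio of means of 48.0. The difference of 5.00 (SE 0.22, limma adjusted p = 1.47e-07) ranked 55th from the top. Ccdc85b, which shares exon bases with Fosl1 on the opposite strand, stood at 60.9 to 73.3 TPM in control cultures and at 69.2 to 77.5 TPM in quiescent cells, ranges that overlap. Fosl2 was lower, at 25.7, 29.9 and 27.5 TPM (-1.89, SE 0.19, limma adjusted p = 1.93e-05).

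All 3 Jun genes were lower in culture, by unequal amounts. Jun stood at 112, 119 and 116 TPM (-4.81, SE 0.06, limma adjusted p = 1.34e-10). Junb stood at 117, 98.3 and 114 TPM (-5.04, SE 0.10, limma adjusted p = 1.32e-09). Jund, at 318, 284 and 330 TPM, was lower by a ratio of means of 2.51 (-1.31, SE 0.14, limma adjusted p = 3.07e-05), against 28.3 for Jun and 33.2 for Junb. Jund was thus the most abundant member in culture, ranked 502nd among all genes.

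Atf3 stood at 75.7, 74.7 and 76.2 TPM in culture, a ratio of means of 12.8 below quiescent cells (-3.65, SE 0.13, limma adjusted p = 5.11e-08), and still above its level in whole liver. Maff stood at 105, 95.4 and 96.9 TPM, all above the 4 quiescent values of 54.4 to 79.8 TPM. Its difference of 0.50 (SE 0.13, limma adjusted p = 0.00624) was below the minimum of 1 and so not called. Batf3, at 1.73, 1.26 and 0.87 TPM, overlapped the quiescent range (-0.60, 95% interval -1.31 to 0.11, limma adjusted p = 0.114).

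Strain, sort, culture and deposited table all differ between the quiescent and cultured groups and cannot be told apart. The Kupffer, endothelial and stellate marker sums given above were also lower in culture, with 13 of 15 stellate markers called lower. Their part in the members' differences was not tested.

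Shares within a family do not depend on the scaling between libraries. In quiescent cells Fos held 68.1% ± 3.50 of the summed TPM of the 4 Fos-family genes (SD, n = 4), Fosb 30.8% ± 3.26, Fosl2 1.01% ± 0.263 and Fosl1 0.0165% ± 0.00867. In control cultures Fosl1 held 68.5% ± 2.65 (SD, n = 3), Fosl2 22.5% ± 1.63, Fos 8.12% ± 0.970 and Fosb 0.839% ± 0.128. Whole liver was nearly all Fos, at 93.5% ± 2.23 (SD, n = 3), with no Fosl1 listed. The family sum went from 10621 ± 710 TPM in quiescent cells to 123 ± 0.787 TPM in control cultures and 32.0 ± 9.50 TPM in liver. Quiescent cells and liver thus shared the leading gene at very different sums, while cultures had another leading gene. The quiescent and cultured ranges of these shares did not overlap for any of the 4 genes.

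In the Jun family, Junb (47.3% ± 1.43) and Jun (42.6% ± 2.40) led in quiescent cells, with Jund at 10.1% ± 1.09 (SD, n = 4). In control cultures Jund held 57.9% ± 1.13, Jun 21.6% ± 1.80 and Junb 20.5% ± 0.860 (SD, n = 3). Liver stood between them, with Junb at 42.4% ± 1.01, Jund at 33.0% ± 0.371 and Jun at 24.6% ± 1.02 (SD, n = 3). The Fos-family sum over the Jun-family sum was 1.38 ± 0.0608 in quiescent cells, 0.230 ± 0.0153 in control cultures and 0.156 ± 0.0148 in liver. Only in the quiescent libraries did Fos-family transcripts outnumber those of their Jun partners.

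**Figure D3:**
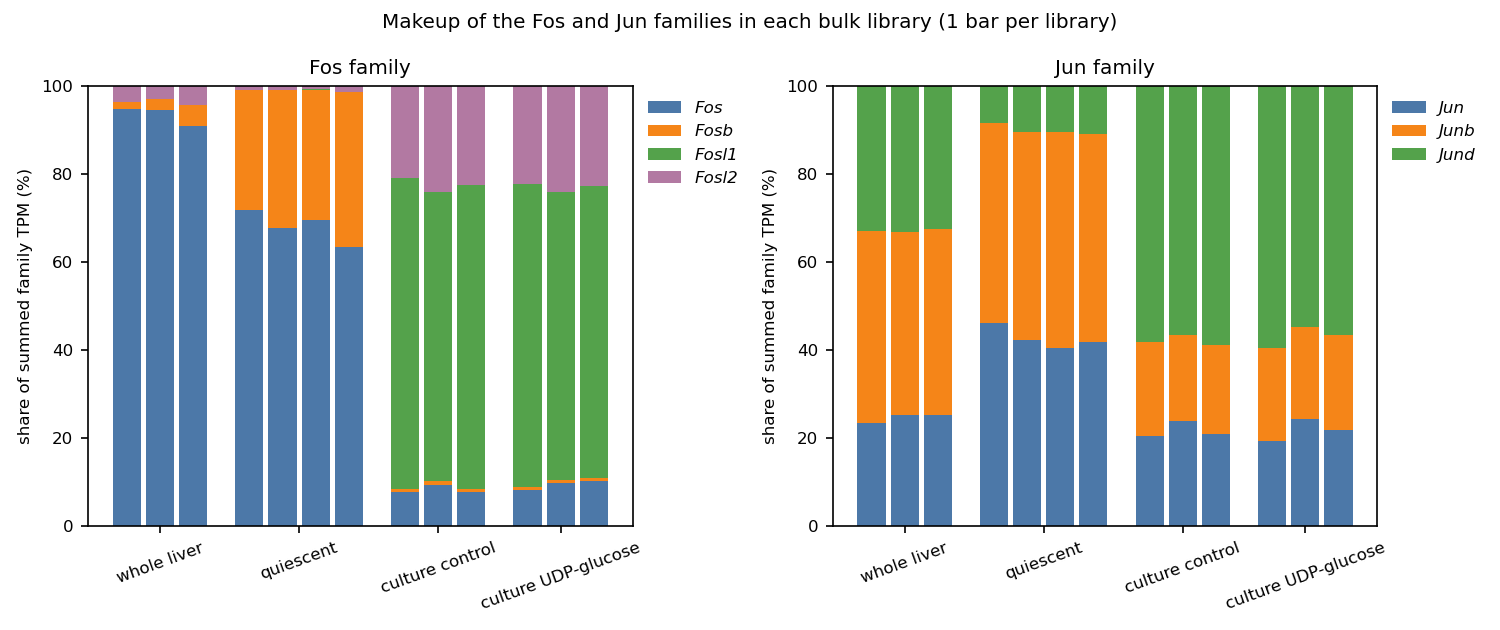
Share of the summed family TPM (y axis, percent) held by each gene of the Fos family (left) and Jun family (right), with 1 bar per bulk library, by group on the x axis. Fos and Fosb fill the quiescent bars and Fosl1 and Fosl2 most of the cultured ones; Jund goes from 10.1% to 57.9% of the Jun family.

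The third comparison asked whether 10 µM UDP-glucose changed the members within culture. None of the 9 tested members was called (limma adjusted p under 0.05, no fold minimum), and none had an unadjusted p under 0.05. Fosb was not tested, since its mean was under 1 TPM. Over all 12161 tested genes 0.609% were called, 52 higher and 22 lower, and this count was 20 to 64 when 1 library was left out. The share of calls that were higher was 70.3%, and 86.3% after median-of-ratios rescaling.

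Fos stood at 10.2, 12.9 and 12.5 TPM with UDP-glucose, a range that overlaps the 9.25 to 11.4 TPM of the controls. Its difference was 0.23 (95% interval -0.09 to 0.55, limma adjusted p = 0.658). Atf3, at 70.9, 72.5 and 64.9 TPM, was the only member whose groups did not overlap. This was so for 16.3% of tested genes, 11.5% lower, as Atf3 was, and 4.73% higher. Its difference was -0.12 (95% interval -0.28 to 0.03, limma adjusted p = 0.620). Fosl1 stood at 87.7, 87.4 and 81.1 TPM, a difference of 0.02 (95% interval -0.13 to 0.17). Jun, at 108, 125 and 119 TPM, differed by 0.02 (95% interval -0.15 to 0.18). Junb, Jund, Fosl2 and Maff had intervals within -0.20 and 0.31, and the widest interval was that of the low Batf3, -0.86 to 0.43. Fosb stood at 0.90, 1.0 and 0.86 TPM. The intervals cover each gene singly and are not adjusted for the number of members.

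Other genes around AP-1 were counted on 5 lists. A listed gene with a mean under 1 TPM in 1 group passed the filter on low values only through the other. Its place in a count is no support for that count. Over all tested genes, 67% were higher and 10.9% lower in quiescent cells than in liver (median 1.62), and 18.6% were higher and 13.2% lower in culture than in quiescent cells (median 0.26). Of early-response genes outside the family, 31 of 31 tested were higher in quiescent cells than in liver (median 5.84), led by Klf4 (572 against 0.283 TPM), a growth-restraining zinc finger factor, and Gem (594 against 0.62 TPM), a small GTPase. Of the 32 listed, 32 averaged at least 1 TPM in quiescent cells, 17 in liver and 28 in control cultures. Klf4 and Gem were among those below it in liver. In culture 25 of 31 were lower than in quiescent cells and none was higher (median -2.35). The lowest were Nr4a1, an orphan nuclear receptor (10.1 ± 0.585 against 1398 ± 198 TPM, difference -6.97), and Egr1, a zinc finger factor (42.7 ± 3.94 against 3348 ± 349 TPM, difference -6.26). With UDP-glucose against control culture 1 of 28 was called, where 0.609% of all tested genes were. It was Gadd45g (336 against 184 TPM, difference 0.86, limma adjusted p = 0.00153), a growth arrest gene.

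Other bZIP genes were mixed. In quiescent cells 21 of 27 were higher than in liver and 3 lower, with a median of 1.66 close to that of all genes. The extremes were Cebpd (6.72) and Jdp2 (5.27), an AP-1 repressor that pairs with Jun, against Creb5 (-2.93) and Cebpa (-3.18), a factor of hepatocyte identity. In culture 5 of 27 were higher and 4 lower (median 0.21), from Atf5 (4.26) and Ddit3 (1.92), both known from the amino acid and unfolded-protein stress responses, to Cebpd (-2.81). The Atf5 level was 547 ± 17.9 TPM in culture (n = 3) and 27.9 ± 4.95 TPM in quiescent cells (n = 4).

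Kinases and factors that act on AP-1 were counted next. Of MAP kinases, serum response factor and MEF2 genes, 25 of 29 were higher in quiescent cells than in liver and 1 lower (median 2.14), where 67% of all genes were higher with a median of 1.62. Map3k8 (5.63), the kinase also called TPL2, and Elk3 (4.74) were the highest. In culture 4 of 28 were higher and 3 lower, with a median of 0.12 against 0.26 over all genes. Map2k3 and Mapk11, both of the p38 branch, were each higher by 1.73, while Mef2c (-2.33) and Map3k8 (-2.34) were lower.

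Proteins that bind AU-rich mRNA and set how long early mRNA lasts were 8 of 8 higher in quiescent cells than in liver (median 2.24), again beside 67% of all genes, so the count says little about these 8. In culture 2 of 8 were lower, Zfp36 (43.3 ± 5.99 against 2263 ± 297 TPM, difference -5.67) and Zfp36l1 (-1.94), and 6 were not called. Zfp36, which encodes tristetraprolin, is itself an early gene.

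Textbook AP-1 target genes did not move 1 way. In quiescent cells 16 of 19 were higher than in liver, against 67% of all genes, among them the chemokine Ccl2 (529 against 0.463 TPM), and 3 were lower, among them Met (-2.69) and Spp1 (-4.88). In culture 9 of 22 were higher and 7 lower (median 0.72). Hmox1, heme oxygenase 1, was the highest (1942 ± 51.3 against 54.5 ± 11.5 TPM, difference 5.15), followed by the TWEAK receptor Tnfrsf12a (3.96). The chemokines Cxcl1 (-4.72) and Ccl2 (-3.32) were the lowest. Of the 30 listed targets, 19 averaged at least 1 TPM in quiescent cells, 9 in liver and 22 in control cultures. Those under 1 TPM in 1 group, such as Ccl2 in liver, passed the filter only through the other.

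**Figure D4:**
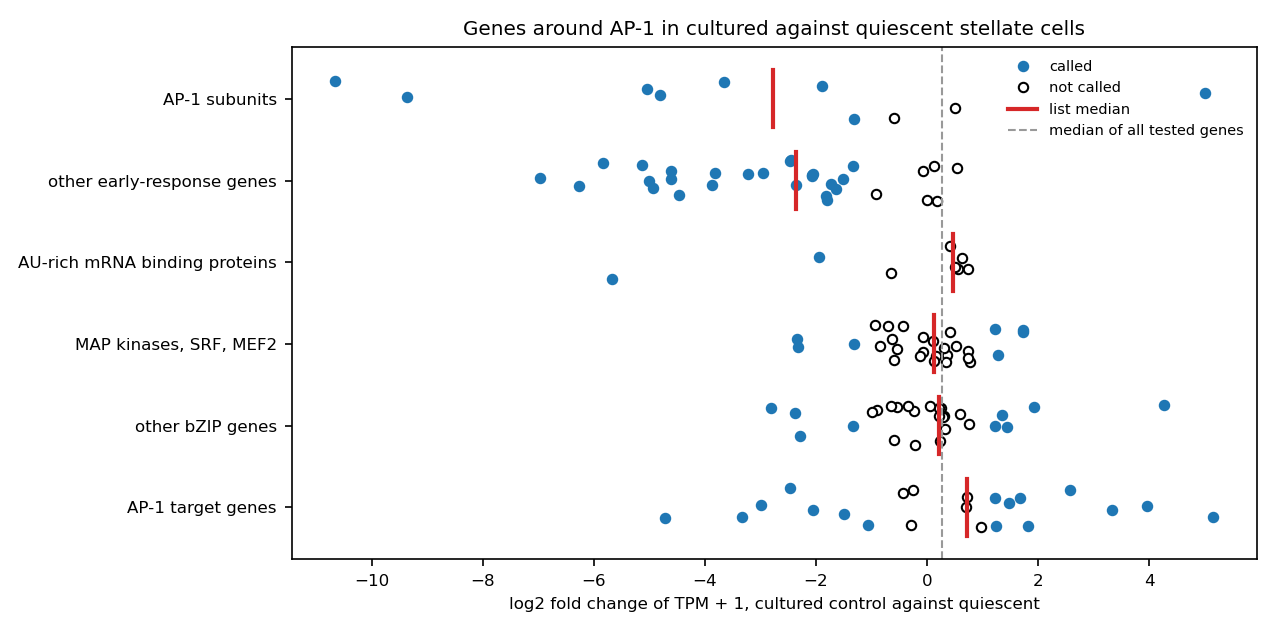
Difference on the log2(TPM + 1) scale (x axis) between cultured control and quiescent stellate cells for each tested gene of the AP-1 subunits and of 5 lists around them (y axis); filled points were called, red lines are list medians and the dashed line the median of all genes. The subunits (median -2.77) and the other early-response genes (-2.35) lie mostly to the left, and the AP-1 target genes (0.72) on both sides.

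The genes whose profile over the 13 libraries lay closest to each member were searched among 11925 genes, as the root mean square difference of centred log2(TPM + 1) values. The points share 4 groups of libraries, so likeness mainly means a like set of group levels. Fos and Fosb were each other's nearest gene (1.06), although this distance was large, and Nr4a1 came next to Fos (1.15). Fosl1 had much closer neighbours, Psat1 (0.22), of serine synthesis, and Mthfd2 (0.30), of mitochondrial folate metabolism, which stood at 107 ± 2.60 and 117 ± 5.80 TPM in control cultures and at 2.60 ± 0.828 and 3.43 ± 1.38 TPM in quiescent cells. Atf3 lay closest to Ecm1 (0.18), a matrix gene on the stellate marker list, and Ms4a4d (0.31). Fosl2 lay closest to Loxl4 (0.18) and Qpct (0.19), and Maff to Fzd1 (0.15) and Vasp (0.16). Jun lay closest to Fam171b (0.20) and Heyl (0.25), Junb to Ptprt (0.24) and Cpz (0.29), Jund to Man2b2 and Tmem141 (0.19 each), and Batf3 to Gpr157 and Arhgef10l (0.31 each).

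The single-cell library showed which liver cells held the transcripts. It had 5063 barcodes, all different, with a median of 1983 unique molecular identifiers (UMIs, counts of captured mRNA ends), and 4808 passed the filters. Clusters were built without the 10 members among the variable genes and named from fixed markers as 10 cell classes, with 195 cells (4.06%) unnamed. There was 1 library, so no test was made, and the 95% intervals (exact Poisson for UMIs, exact binomial for shares of cells) cover counting error only. Alb or Apoa1, hepatocyte mRNA, was seen in 66.4% of all cells, so free RNA was present.

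Stellate-like cells (363 cells, 1 cluster led by Dcn, Colec11 and Ecm1, median 3097 UMIs) held the members at 1672 CPM in sum (CPM, a share of all UMIs of the class on the same scale as TPM, with no length in it). Their order was Junb (643 CPM, 598 to 690), Jund (516, 476 to 558), Fos (222, 196 to 250), Jun (203, 178 to 230) and Fosb (41.7, 30.9 to 55.0). Fosl2 (19.2), Atf3 (12.5), Batf3 (9.17) and Maff (5.84) rested on 23, 15, 11 and 7 UMIs. The intervals of Fos and Jun overlap, and those of Junb and Jund do not. Fos over Jund was 0.430 (0.371 to 0.497) in UMIs of these cells. In bulk TPM the same ratio was 9.52 ± 1.97 in quiescent cells (SD, n = 4), 0.443 ± 0.0453 in liver (n = 3) and 0.0325 ± 0.00679 in control cultures (n = 3). The assays differ in scale, strain label and sort, so these ratios stand side by side and were not compared.

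Of the 10 named classes, Junb was highest in stellate-like cells, while 47 unnamed cells, a cluster with both Kupffer and stellate genes, had it at 754 CPM. Kupffer-like cells had Junb at 419 CPM (379 to 463; 75.96 and 475 in the 2 clusters), myeloid-like cells 410 (349 to 479), sinusoidal endothelial-like cells 185 (173 to 198) and hepatocyte-like cells 145 (126 to 166). With every cell thinned to 1000 UMIs, which left out 73 shallower cells in all and 2 stellate-like ones, Junb was seen in 39.1% of stellate-like cells (34.0% to 44.3%) and 27.4% of Kupffer-like cells (23.1% to 31.9%). Unthinned, the shares were 63.6% and 48.0%. Erythroid-like cells (median 4894 UMIs) were the class lowest in Junb by CPM, at 20.9, with a thinned share of 0.935%, in 1 cell of 107. The 10 erythroid markers, with globin genes among them, took 877529 CPM of that class. This leaves little room for any other gene, in CPM or after thinning. In plasmacytoid dendritic-like cells the thinned Junb share was 0 of 74, with an interval up to 4.86%. Unthinned, 12 of these 74 cells had a Junb UMI (16.2%), and the class level was 67.1 CPM (39.8 to 106).

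Among named classes Fos was highest in myeloid-like (355 CPM, 298 to 420) and Kupffer-like cells (295, 261 to 332), with overlapping intervals. Stellate-like (222), endothelial-like (153, 142 to 164) and hepatocyte-like cells (112, 95.3 to 131) followed. The 47 unnamed cells with both Kupffer and stellate genes had Fos at 461 CPM. T, B and plasmacytoid dendritic-like cells lay between 37.3 and 65.7 CPM, and erythroid-like cells at 11.4. Jun followed a like order, from 309 CPM (256 to 370) in myeloid-like cells through stellate-like (203) and Kupffer-like cells (181) to endothelial-like cells (163). The 2 hepatocyte-like clusters differed, with Fos at 30.2 and 196 and Jun at 32.9 and 271 CPM, and with at most 10% mitochondrial UMIs the hepatocyte-like Fos level was 59.3. The 2 Kupffer-like clusters stood at 114 and 324 for Fos. The 5 endothelial-like clusters ran from 66.6 to 210 CPM for Fos and from 137 to 200 for Jun. An endothelial-like cluster of 651 cells had the highest of both, near the stellate-like 222 and 203.

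Jund ran on another pattern. Among named classes it was highest in plasma cell-like (1402 CPM, 1191 to 1639, 16 cells) and B cell-like cells (1367, 1258 to 1483). T cell-like cells came next (791, 734 to 851), with stellate-like cells at 516. Junb over Jund, in UMIs, was 1.25 in the stellate-like class, 0.853 in the Kupffer-like, 0.507 in the endothelial-like and 0.142 in the B cell-like class. Stellate-like cells were the only named class with more Junb than Jund UMIs.

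Batf3 was highest in 2 classes. Myeloid-like cells, a cluster led by MHC class II genes that also held S100a8 among its leading genes, had Batf3 at 127 CPM (94.1 to 168), and Kupffer-like cells 121 (100.1 to 146). Stellate-like cells had 9.17 (4.58 to 16.4), endothelial-like cells 3.46 (1.98 to 5.62), and none of 491 hepatocyte-like cells had a UMI, which at a limit of 3 cells allows a share of cells with a UMI of up to 0.611%. Thinned to 1000 UMIs, 9.44% of Kupffer-like cells (6.80% to 12.7%) and 0.554% of stellate-like cells had Batf3. In the bulk quiescent libraries, where Batf3 stood at 1.24 to 3.91 TPM, the Kupffer markers were present as given above, and their part in that level was not tested.

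Fosl1 had no UMI in any of 4808 cells, nor in any of the 363 stellate-like ones. At a limit of 3 cells, this allows a share of cells with a UMI of up to 0.0624% and 0.826%, and it does not limit the share that express the gene at a level below capture. Bulk quiescent cells had it at 1.03 to 3.10 TPM and cultures at 81.1 to 87.7 TPM. Among named classes Fosl2 was highest in Kupffer-like cells (50.03 CPM, 36.8 to 66.5), then endothelial-like (26.4, 21.9 to 31.5) and stellate-like cells (19.2, 12.2 to 28.8). Fosb was highest, again among named classes, in stellate-like cells at 41.7 CPM, with an interval that overlaps that of Kupffer-like cells (29.8, 19.8 to 43.1). The 47 unnamed cells with both Kupffer and stellate genes had Fosb at 84.4 CPM and Fosl2 at 50.6 CPM, on 15 and 9 UMIs. Atf3 stood at 28.5 in myeloid-like, 24.5 in Kupffer-like, 15.3 in hepatocyte-like and 12.5 in stellate-like cells, with overlapping intervals, and at 3.03 (1.65 to 5.08) in endothelial-like cells. Maff rested on 42 UMIs in all cells, too few to order the classes.

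**Figure D5:**
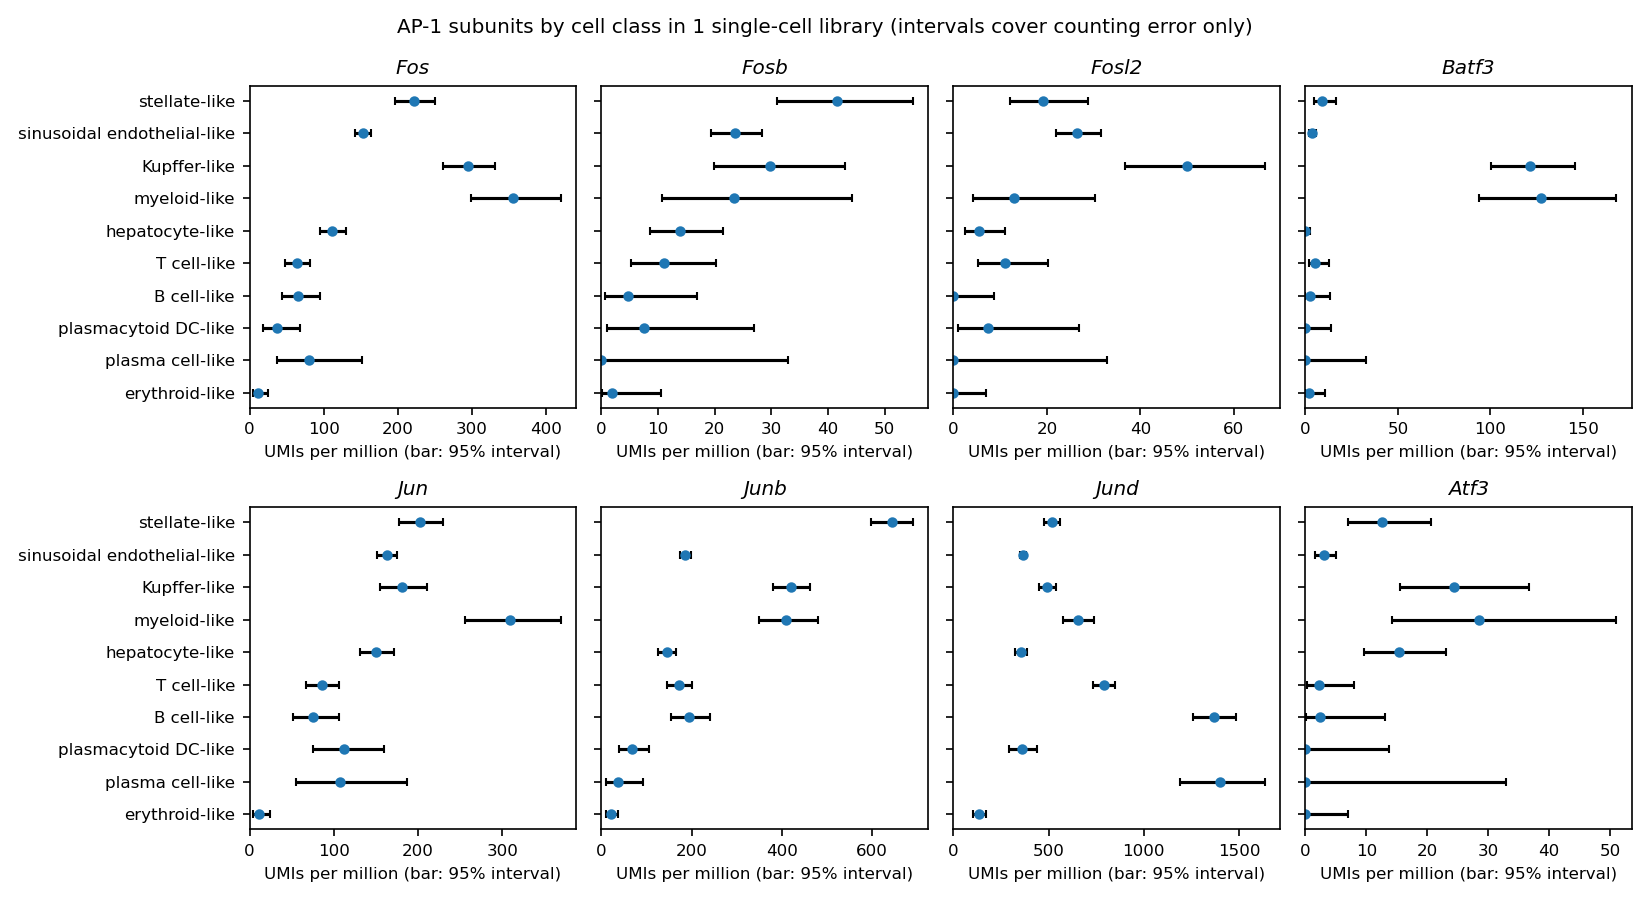
CPM (x axis) of 8 AP-1 subunits in 10 cell classes (y axis) of the single-cell library, with exact 95% Poisson intervals as bars that cover counting error only; x axes differ between panels. Junb is highest in stellate-like cells (643), Jund in plasma cell-like and B cell-like cells, and Batf3 in myeloid-like and Kupffer-like cells.

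Within stellate-like cells thinned to 1000 UMIs, Jun was seen in 22 of 54 cells with a Fos UMI (40.7%, 27.6% to 55.0%) and in 36 of 307 without one (11.7%, 8.35% to 15.9%). Fosb was seen in 14.8% (6.62% to 27.1%) and 2.28% (0.922% to 4.64%) of the same cells. In endothelial-like cells Jun was seen in 22.1% of 262 cells with Fos (17.3% to 27.7%) and 12.7% of 2133 without (11.3% to 14.2%). Fosb was seen in 5.73% (3.24% to 9.27%) and 1.31% (0.874% to 1.89%) of the same endothelial-like cells. Hepatocyte-like cells had Jun in 24.2% of 33 with Fos (11.1% to 42.3%) and 7.95% of 440 without (upper limit 10.9%). For unnamed cells the Jun shares were 28.6% of 28 (13.2% to 48.7%) and 6.06% of 165 (2.94% to 10.9%). In each of these cases the intervals with and without Fos did not overlap. The intervals with and without Fos overlapped in the cases that follow. Jun was seen in 42.4% of 33 myeloid-like cells with Fos and 20.8% of 77 without. In Kupffer-like cells it was seen in 20.4% of 93 cells with Fos and 11.25% of 320 without. In stellate-like cells Atf3 was seen in 1.85% (0.0469% to 9.89%) of cells with Fos and 1.30% (0.356% to 3.30%) without. Jun was seen in 1 of 16 B cell-like cells with Fos (6.25%) and 7.23% of 235 without, and in 1 of 13 T cell-like cells with Fos (7.69%) and 8.81% of 329 without. These shares describe cells of 1 library, and the part of doublets in them was not tested.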

How the data were processed

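Bulk RNA was measured in 13 libraries and single cells in 1. The deposited bulk values are TPM per gene, in 3 tables (quiescent cells, liver, both cultures), made with kallisto per the names of the tables; the submitters' processing notes name kallisto 0.44.0 and bcl2fastq 2.19, and the builds GRCm38 and mm10. Of 35197 rows per file, 26 named by dates (at most 0.3195% of TPM) were left out. The deposited single-cell values are counts of UMIs, for which the same notes name Cell Ranger.

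Bulk comparisons were fitted with limma 3.58.1 (R 4.3.3) on log2(TPM + 1), a scale that understates the change of low genes, with variances following mean expression, keeping genes that averaged 1 TPM or more over the libraries of a comparison. Two-sided p-values were adjusted over all genes by Benjamini and Hochberg's method, with a threshold of 0.05 and, across tables, an absolute difference of at least 1. The fit was tested on simulated data. Libraries of a group correlated at 0.981 to 0.991, and none were identical.

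Single cells (scanpy 1.11.5, Python 3.11.15) had at least 500 UMIs, 200 genes and at most 20% mitochondrial UMIs. With 2000 variable genes, 30 components, 15 neighbours and Leiden resolution 1 there were 19 clusters, of which 16 were named from at least 3 markers among their 50 leading genes, and at least 2-fold those of any other class. The scoring was chosen after the data were seen. Scrublet marked 4 barcodes (0.0790%), too few to be of use, and no doublets were removed.

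The members and lists were chosen with earlier results of these data known. All 10 members are named; from each list, the 2 called genes with the highest and the 2 with the lowest difference, and for each member the 2 nearest profiles; some list genes the rule selects are not reported here. Alternatives were other pseudocounts, no filter, 2 other scalings, a joint fit, no variance trend, no fold minimum, other clusterings and each library left out.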

Additional observations from a re-analysis of the deposited data

Results flagged for a closer look

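In quiescent library 1, Jund held 8.47% of the Jun-family TPM, while the nearest of the other 3 libraries held 10.47%. The gap to that library was 0.838 of the whole range of the group, above Dixon's 95% critical value for 4 libraries. Of 17 groups of values looked at in this way 1 stood out, and chance marks about 1 in 20.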

How the results depend on the processing

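Against quiescent cells, the 7 lower and 1 higher members of the control cultures kept their direction and call in all settings run. Without a minimum fold change, a setting chosen after seeing the data, Maff was called as well; all genes called then rose from 3990 to 8924, and with a pseudocount of 5 there were 2631. Against liver, 8 members stayed called in every setting that tested them; Fosl1 and Batf3 did not with a pseudocount of 5 or either rescaling, and under quantile normalisation Batf3 was -0.12 and 6490 genes were called against 9847. For UDP-glucose no member was called in any setting. All genes called there were 74, and 30 with no filter, 23 in a joint fit, 25 without a variance trend and 20 to 64 without 1 library: 20, 30 and 24 without treated libraries 2, 1 and 3, and 24 and 21 without control libraries 1 and 3. Small differences changed sign: Jund was 0.045 after median-of-ratios rescaling, and leaving out a library gave -0.068 to 0.059 for Jund, -0.028 to 0.078 for Jun, -0.0045 to 0.057 for Fosl1 and -0.0018 to 0.12 for Junb; the cause was not tested. In single cells 107 of 120 values stayed within the main counting interval, and the other 13 were in endothelial-like or hepatocyte-like cells. No paired analysis was possible because the labels give the groups no shared replicate numbers. The bulk depth is unknown.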
